A study of Homo sapiens with 4 samples.

Results

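This account describes 64 genes of chromatin remodelling and histone modification among the 19192 genes counted in 4 libraries. They were chosen by symbol, with no threshold on values, but earlier results of these data were known at that point. The symbols are KDM, KMT2, SETD, SMARC, HDAC or CHD directly followed by a number or subunit code, with CHD limited to CHD1 through CHD9. The rule gave 19 KDM genes (histone lysine demethylases), 5 KMT2 genes and 9 SETD genes (lysine methyltransferases and relatives), 12 SMARC genes (subunits of SWI/SNF, ISWI and related remodellers), 11 HDAC genes (deacetylases) and 8 CHD genes (chromodomain helicases). SETD1A, SMARCA2 and CHD2 were not analysed here.

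Nucleosomes restrict access to DNA. Remodellers use ATP to slide, eject or exchange them, and the SWI/SNF and NuRD complexes are built around SMARC and CHD ATPases. Writers such as the KMT2 and SETD enzymes add methyl groups to histone lysines, and erasers such as the KDM demethylases and HDAC deacetylases remove methyl and acetyl groups. SWI/SNF subunits and KMT2 genes are often mutated in colorectal and other tumours.

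SW480 is an established cell line from a human colorectal adenocarcinoma, and ribosome footprints and randomly fragmented total RNA were sequenced from 2 lines derived from it. The knockout-labelled line carries LIN28B overexpression together with an IMP1-/- knockout, and the OE-labelled line carries LIN28B overexpression alone; LIN28B blocks maturation of let-7 microRNAs, and IMP1, encoded by IGF2BP1, binds mRNAs. Each line gave 1 library per assay, from 3 pooled plates, so nothing here has a replicate check and no test was made; all 95% intervals cover counting error only. The labels do not say whether each line is a single clone, and the OE-labelled RNA library is labelled SW840 under cell line and SW480 under source. In every ratio the knockout-labelled library is divided by the OE-labelled one.

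Total counts were 6813372 (knockout-labelled RNA), 5429224 (OE-labelled RNA), 3260262 (knockout-labelled footprints) and 2732760 (OE-labelled footprints). The 64 genes made up 0.524% and 0.448% of RNA counts and 0.435% and 0.441% of footprint counts in the knockout-labelled and OE-labelled lines. IGF2BP1 went against its label: it had 1974 RNA and 821 footprint counts in the knockout-labelled line, against 840 and 332 in the OE-labelled line, a 1.73-fold higher mRNA. LIN28B mRNA was 5.41-fold lower in the knockout-labelled line, with 303 against 1205 counts. The libraries are therefore called by their labels throughout. Of 11 colorectal epithelial markers, KRT8, KRT18 and EPCAM had high counts in all 4 libraries and KRT20 and CDX1 had 0. Summed RNA of these markers was 4671 CPM in the knockout-labelled line and 10026 CPM in the OE-labelled line, with 13713 and 27935 CPM in footprints. Of 12 markers of blood, stromal, endothelial and muscle cells, 5 to 8 had a count per library, summing to 70.6 and 43.4 CPM in RNA and 112 and 61.6 CPM in footprints; PTPRC and DCN were at 0. Within these lists COL1A1, a fibroblast collagen, had 55 RNA and 57 footprint counts in the knockout-labelled line, against 2 and 0, and the macrophage gene CD68 had 163 and 104, against 58 and 35. The muscle gene DES had 156 and 116, against 101 and 75, while PDGFRB had 6 RNA counts, against 11. The epithelial sums rest mainly on KRT8 and KRT18, which were lower in the knockout-labelled line. After scaling EPCAM, VIL1, ASCL2 and AXIN2 were lower there too in both assays, AXIN2 with 354 and 88 counts, against 841 and 316. CDH1 (E-cadherin) went the other way, with 614 and 436 counts there, against 243 and 167, and CEACAM5 had 9 RNA counts, against 5. The part of these markers' differences in the values below was not tested, and in such bulk samples fewer cells of a type and less RNA per cell cannot be told apart.

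Some of these genes have near-copies elsewhere in the genome, so a short read cannot always be assigned. Every 28-nt window of each listed coding sequence was searched for in other transcripts (GENCODE release 29, GRCh38). Of the 64 genes, 55 shared under 1% of their windows with another locus. SETD8, also called KMT5A, which adds a methyl group to histone H4, shared 83.6% of its windows, mostly with SETD8P1, and SMARCE1 shared 52.7% with 7 loci of SMARCE1 pseudogenes. KDM4E shared 38.9%, KMT2C 11.7% (mostly with BAGE2), HDAC1 10.2% (mostly with HDAC1P2), KDM6A 7.52% with its Y-linked paralogue UTY, KDM4D 6.16%, and KDM5C and KDM5D about 2.0% with each other. Readthrough or other transcripts of the same locus hold 97.5% of the windows of CHD4, 98.2% of HDAC8, 89.1% of SMARCE1, 89.2% of HDAC10, 59.8% of KDM4A and 30.4% of KMT2A. How the deposited counts treat such reads is unknown here, and values of SETD8 and SMARCE1 are uncertain for this reason. For 4 of these genes a stretch of coding sequence that is letter for letter identical in the copy is shown, so that the size of the ambiguity can be seen; each crosses 1 exon junction, and capitals mark the first window of 28 nt, about the length of a footprint.
HDAC1 (chr1:32332709-32333033, plus strand): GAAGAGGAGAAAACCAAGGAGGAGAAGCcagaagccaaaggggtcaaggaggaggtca
KDM6A (chrX:45076812-45078455, plus strand): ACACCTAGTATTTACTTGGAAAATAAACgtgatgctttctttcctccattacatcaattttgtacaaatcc
KMT2C (chr7:152265105-152273772, minus strand): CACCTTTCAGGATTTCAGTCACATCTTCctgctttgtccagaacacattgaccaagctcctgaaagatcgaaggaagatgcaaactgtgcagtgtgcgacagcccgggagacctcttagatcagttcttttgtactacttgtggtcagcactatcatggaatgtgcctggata
SETD8 (chr12:123404946-123407547, plus strand): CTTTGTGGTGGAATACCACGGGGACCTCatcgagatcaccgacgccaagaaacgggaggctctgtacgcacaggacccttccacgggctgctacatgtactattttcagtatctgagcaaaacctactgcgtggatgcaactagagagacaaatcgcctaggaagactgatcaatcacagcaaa
The runs are 58 nt (HDAC1 and HDAC1P2), 71 nt (KDM6A and UTY), 173 nt (KMT2C and BAGE2) and 184 nt (SETD8 and SETD8P1) long. A footprint from any position inside them matches both genes equally.

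A gene was taken as measured in an assay when its counts in both lines averaged 50 or more. This held for 55 of the 64 genes in mRNA and for 48 in both assays. Among the 9 genes under that minimum in mRNA, KDM4E, a KDM4-type demethylase, had no count in any library, and KDM4D, its close relative, had 4 against 5 RNA counts. The neuronal remodeller CHD5 had 23 RNA counts in the knockout-labelled line, against 18 in the OE-labelled line, and HDAC9, a class IIa deacetylase, had 11 against 10. HDAC11 had 57 against 41, KDM8 16 against 8, SETD6 27 against 62 and SETD9 38 against 41 RNA counts; KDM5D was also under the minimum. A further 7 genes were measured in mRNA only. These are HDAC5, HDAC10, KDM1B, SETD1B, SETD4, SETD5 and SMARCD3, whose footprint counts lay between 22 and 64 in the knockout-labelled line and between 26 and 50 in the OE-labelled line.

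Per coding length, the most abundant footprints of the set in the knockout-labelled line were those of SMARCB1, the core SWI/SNF subunit lost in rhabdoid tumours, at 173 CPM per kilobase of coding sequence, against 137 in the OE-labelled line. HDAC2, the highest in the OE-labelled line, stood at 113 against 179, HDAC1 at 101 against 113, and the ISWI ATPase SMARCA5 at 91.9 against 74.9. HDAC1 and HDAC2 are the paired catalytic subunits of several co-repressor complexes. At the low end of the 48 genes in the knockout-labelled line, CHD9 had 2.89 against 2.77, KMT2C 2.98 against 2.63 and KMT2D 3.08 against 4.73 CPM per coding kilobase of footprints. In the OE-labelled line CHD3, at 3.69, and others lay below KMT2D. In RNA the highest level per coding kilobase was that of SETD7, a methyltransferase of histone H3 and of many other proteins, at 127 in the knockout-labelled line and 125 in the OE-labelled line, while its footprints reached 50.7 and 39.3. SETD7 thus ranked first in RNA per coding length but not in footprints. Only 14.9% of its listed transcript is coding, so its RNA rank depends on which transcript part was counted, which is not stated.

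**Figure D1:**
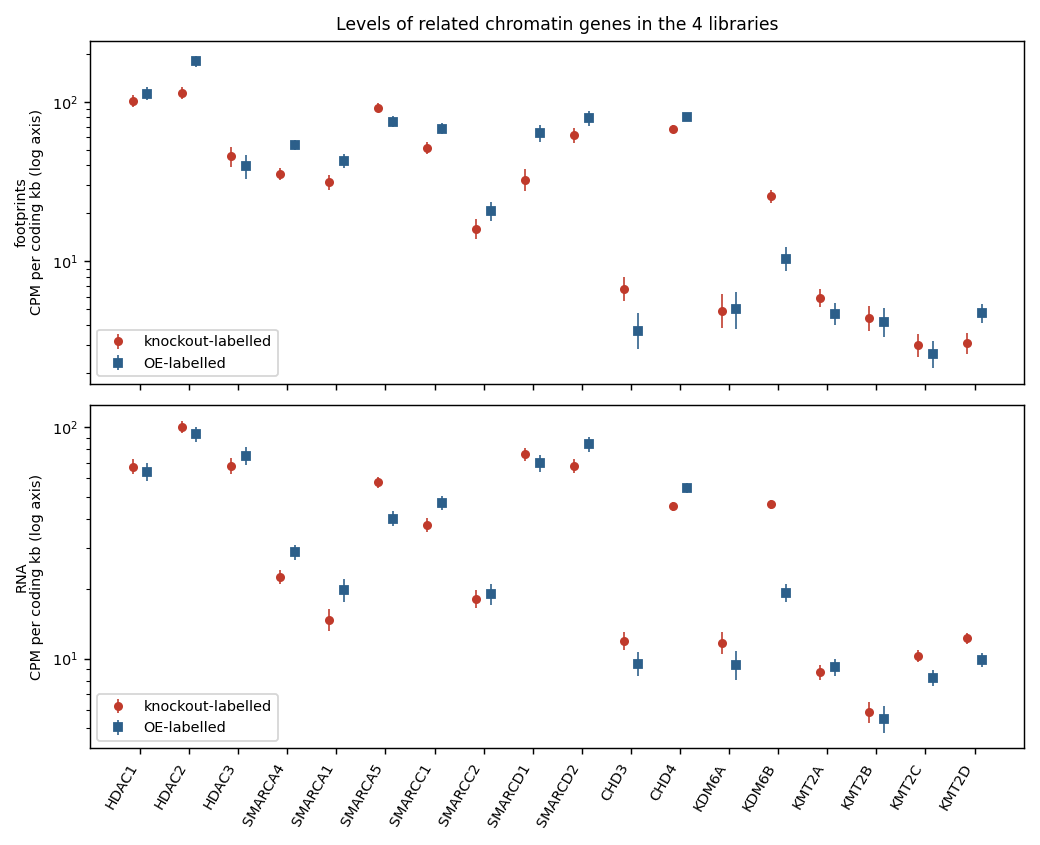
Levels of 18 related chromatin genes in the 4 libraries as CPM per kilobase of coding length on a log axis, footprints above and RNA below; circles are knockout-labelled and squares OE-labelled libraries, and bars are 95% Poisson counting intervals. HDAC2 footprints stand at 113 in the knockout-labelled and 179 in the OE-labelled library, while its RNA stands at 99.7 and 92.8; KMT2C and KMT2D lie lowest of those shown in footprints of the knockout-labelled library.

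Footprints relative to RNA were compared within each line, as the log2 of footprint CPM over RNA CPM, centred on the median of the 7260 genes measured in both assays. The 48 chromatin genes lay below that median on the whole, at a median of -0.38 in the knockout-labelled line and -0.34 in the OE-labelled line. Family medians were far apart. The SMARC median lay above the median gene, at 0.21 and 0.32, but its genes were split. Of 11 SMARC genes, 6 lay above 0 and 5 below in the knockout-labelled line, and 7 and 4 in the OE-labelled line. KMT2 and SETD medians lay far below 0, at -1.50 and -1.27 and at -1.51 and -1.33, as did no other family. HDAC genes stood at -0.05 and -0.17, CHD genes at -0.35 and -0.33, and KDM genes at -0.45 and -0.47. With uncentred TMM scaling the HDAC values became 0.22 and 0.08. The median of all genes then stood at 0.28 and 0.26, so HDAC stayed below the median gene. With a count minimum of 200 HDAC stood at -0.18 and 0.36 and SMARC at 0.07 and 0.0045. At that minimum HDAC thus lay below SMARC in the knockout-labelled line and above it in the OE-labelled line. With the minimum of 50 and centring on the median gene, the family medians came in the same order in both lines. In the knockout-labelled line 13 of 48 genes were at least 2-fold below the median gene, against 18.8% of all measured genes, and none was 2-fold above it, against 10.5%. In the OE-labelled line 15 were 2-fold below, against 17.4%, and none above, against 10.6%. Of those 2-fold below, KMT2 and SETD genes made up 6 of 13 in the knockout-labelled line and 6 of 15 in the OE-labelled line.

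**Figure D2:**
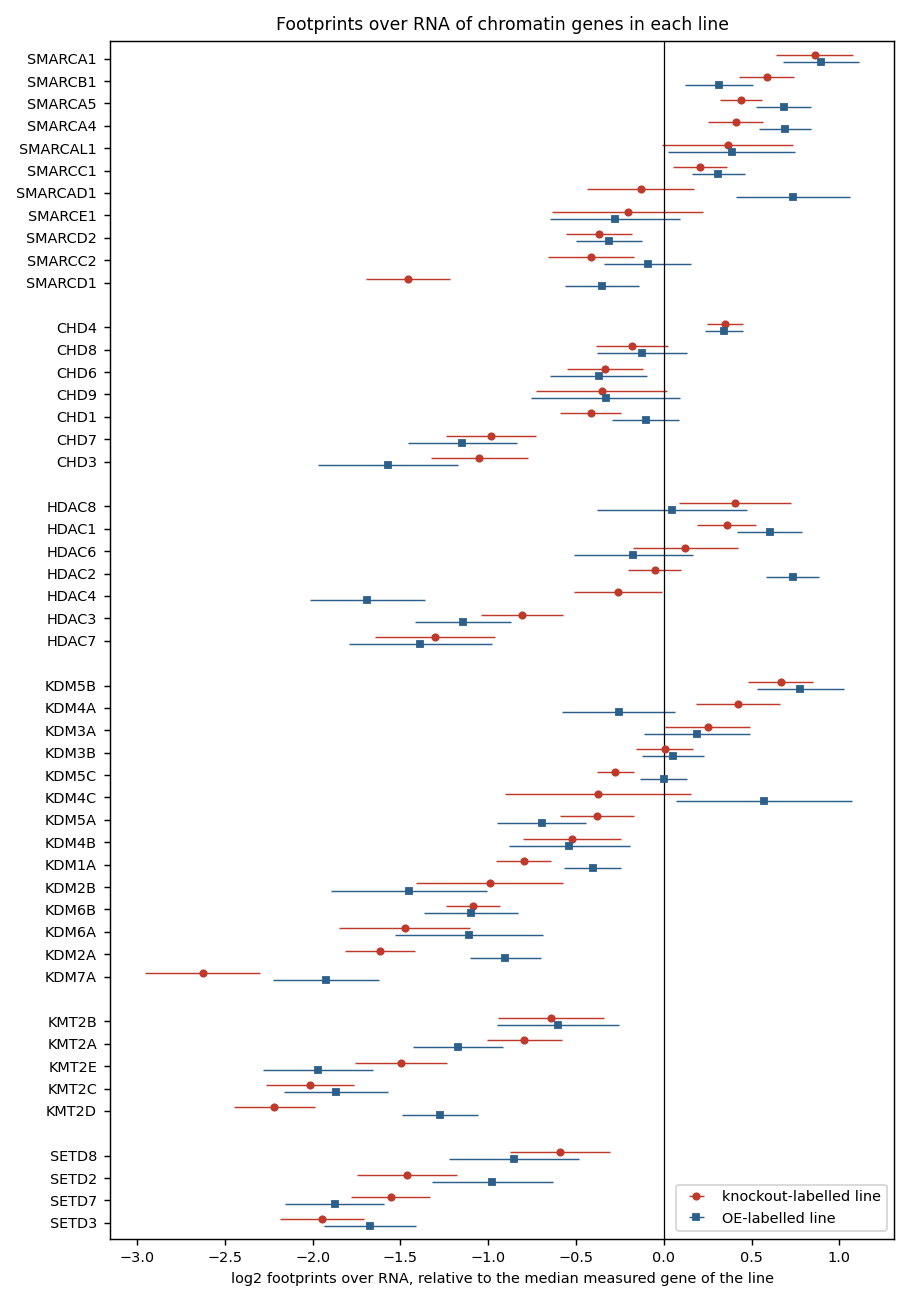
Log2 footprints over RNA of the 48 genes measured in both assays, grouped by family; 0 is the median measured gene of each line, circles are the knockout-labelled and squares the OE-labelled line, and bars are 95% Wald counting intervals. All 9 KMT2 and SETD genes lie left of 0 in both lines, and most SMARC genes lie near or right of it. SMARCD1, HDAC4, HDAC2 and KMT2D are among the genes whose intervals do not overlap between the lines. KDM1A, KDM2A, KDM4A, KDM5C, KDM7A and SMARCAD1 are others. How common this is among all measured genes was not tested.

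These family places depend on which part of the transcript was counted, and the sources used here do not name it. If RNA was counted over whole transcripts and footprints over coding sequence, and each is divided by its length, the SMARC median becomes -0.45 in the knockout-labelled line and -0.09 in the OE-labelled line, so it no longer lies above the median gene. KMT2 then stands at -2.22 and -2.03, SETD at -1.13 and -1.07, CHD at -0.92 and -0.94, KDM at -0.86 and -0.75, HDAC at -0.08 and -0.95, and all 48 genes at -0.75 and -0.73. By their medians KMT2 and SETD stay lowest in that setting too. The coding share of the transcript is 14.9% in SETD7, 33.6% in SETD8, 61.9% in SETD3 and 94.5% in SETD2. Genes with a small coding share move up most in that setting, so the SETD median does not hold for each gene. The measured KMT2 genes are long, with a median coding length of 11907 nt, against 1371 nt for all measured genes. Among all 84 measured genes with a coding length of at least 8000 nt the median footprint over RNA was -0.80 and -0.69 in the knockout-labelled and OE-labelled lines. The 7 chromatin genes of that length gave -0.80 and -1.15. The 4 measured SETD genes had a median coding length of 1440 nt and a median 3' UTR of 1297 nt, against 892.5 nt for all measured genes. They are unlike each other, with coding lengths from 1056 to 7692 nt and 3' UTRs of 407 nt in SETD2 and 5630 nt in SETD7. Across the 48 genes, footprint over RNA had a Spearman correlation of -0.21 with 3' UTR length in the knockout-labelled line and -0.20 in the OE-labelled line, against -0.47 and -0.44 across all 7252 genes with an annotated transcript; genes are not independent replicates, and all values of a line share its libraries. The part of length in the family differences was not tested.

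Between the lines, few of these genes differed in mRNA. KDM6B and SETD2 were at least 1.5-fold higher in the knockout-labelled library, 2 of 55 genes against 10.5% of all 9855 measured genes. Likewise SMARCE1 and HDAC4 were at least 1.5-fold lower, 2 of 55 against 10.5%. A 2-fold difference was reached by KDM6B alone on the higher side, 1 of 55 against 2.99%, and by no gene on the lower side, against 3.49%. In footprints, 5 of 48 were at least 1.5-fold higher, against 15.0% of 7323 genes, and 7 of 48 at least 1.5-fold lower, against 14.0%, so the lower share is near the background. Of these, KDM6B was also 2-fold higher, 1 of 48 against 4.66%, and none was 2-fold lower, against 4.44%. The median log2 ratio of the set was 0.09 in mRNA and 0.11 in footprints, against 0.01 and 0.02 for all genes; with a count minimum of 200 the footprint median was -0.18.

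The efficiency ratio is the footprint ratio divided by the mRNA ratio, and so restates the difference between the lines in footprints over RNA. HDAC4 and KDM4A were at least 1.5-fold higher in it, 2 of 48 genes against 13.4% of 7260, and HDAC4 at least 2-fold, 1 of 48 against 3.65%. SMARCD1, KDM4C, KMT2D, SMARCAD1, HDAC2, KDM2A and KDM7A were at least 1.5-fold lower, 7 of 48 against 12.9%, and SMARCD1 at least 2-fold, 1 of 48 against 3.6%. The lower count is again near the background, and the higher count is below it. The set's median was -0.02, against -0.00 for all genes. Footprint and mRNA ratios were both above 0 in 20 genes and both below 0 in 10. In 12 genes (25%) mRNA was higher and footprints lower, against 18.1% of all genes, and in 6 (12.5%) the reverse held, against 18.1%. Pearson's r between both ratios was 0.41 and Spearman's rho 0.29 across the 48 genes, against 0.51 and 0.41 across all 7260, with the same caution that genes are not independent.

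**Figure D3:**
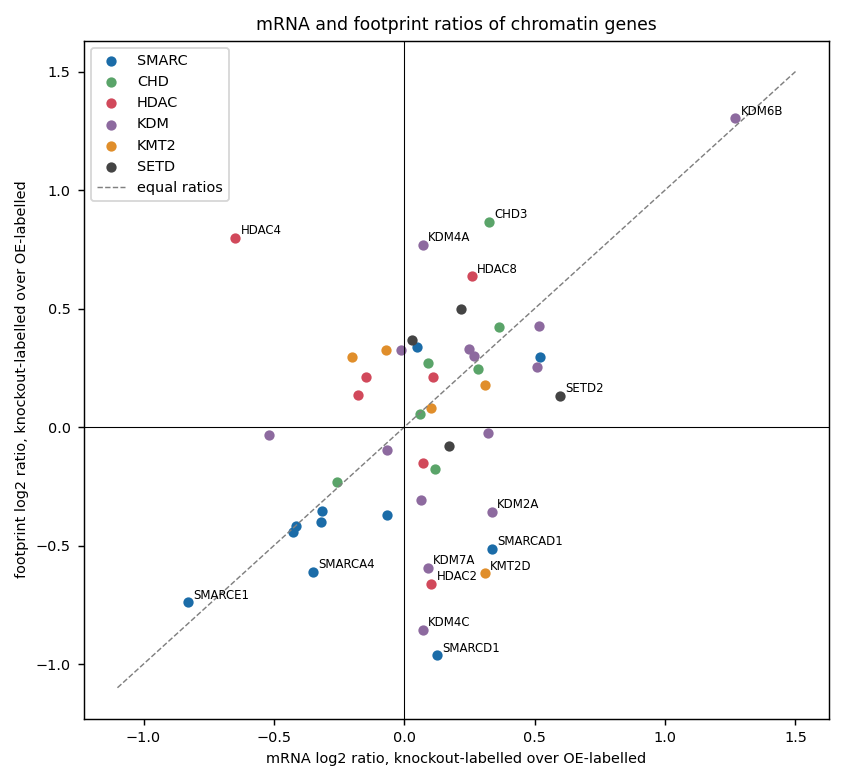
Footprint log2 ratio (vertical) against mRNA log2 ratio (horizontal), knockout-labelled over OE-labelled, for the 48 genes, coloured by family; the dashed line marks equal ratios, and genes at least 1.5-fold different in any ratio are named. KDM6B stands at 1.27 and 1.30 on the dashed line; HDAC4 lies above it, at -0.65 in mRNA and 0.80 in footprints, and SMARCD1 below it, at 0.12 in mRNA and -0.96 in footprints.

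Among remodellers, SMARC subunits were mostly lower in the knockout-labelled line. In mRNA, 8 of 12 had a ratio below 0 and the family median was -0.32 (-0.20 with total-count scaling and -0.07 with a count minimum of 200), and in footprints 9 of 11 were below 0 with a median of -0.42; 48.9% and 48.5% of all genes were below 0. SMARCE1, the BAF57 subunit with an HMG box, was at least 1.5-fold lower in mRNA, and SMARCE1, SMARCD1 and SMARCA4 in footprints. SMARCA5 and SMARCB1 were the exceptions, above 0 in both assays. The efficiency median was -0.08, with SMARCD1 and SMARCAD1 at least 1.5-fold lower and none higher.

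SMARCD1, the BAF60a subunit that links SWI/SNF to transcription factors (ENST00000394963, chromosome 12, 50084972 to 50100712, GRCh38), had 834 RNA and 165 footprint counts in the knockout-labelled line, against 562 RNA and 266 footprint counts in the OE-labelled line. Its mRNA log2 ratio was 0.12 (95% interval -0.03 to 0.28) and its footprint ratio -0.96 (-1.25 to -0.68). Footprint counts were thus fewer in the knockout-labelled line, whose footprint library is the deeper one. The efficiency ratio was -1.09 (-1.41 to -0.77), 2.13-fold lower, the lowest of the 48 genes. Its paralogue SMARCD2 had 767 RNA and 323 footprint counts, against 701 and 341, and an efficiency ratio of -0.04 (-0.30 to 0.23). SMARCD3, the paralogue typical of heart and muscle, had 73 RNA and 49 footprint counts, against 77 and 26, too few footprints for the count minimum.

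SMARCA4, the BRG1 ATPase of SWI/SNF, had 776 RNA and 561 footprint counts in the knockout-labelled line, against 727 and 708 in the OE-labelled line. Its ratios were -0.35 (-0.50 to -0.20) in mRNA and -0.61 (-0.77 to -0.45) in footprints. The scaffold subunit SMARCC1 (BAF155) had 889 RNA and 559 footprint counts, against 815 and 610, with ratios of -0.32 and -0.40. Its paralogue SMARCC2 (BAF170) had 468 and 191, against 360 and 204, with -0.07 and -0.37. All these core SWI/SNF subunits stood lower in footprints in the knockout-labelled line. SMARCB1, in contrast, had 707 RNA and 578 footprint counts, against 502 and 377, giving a footprint ratio of 0.34 (0.15 to 0.53) and an efficiency ratio of 0.29 (0.04 to 0.54), both the highest of the family. SMARCE1 had 134 RNA and 63 footprint counts, against 175 and 87, the lowest mRNA ratio of the set at -0.83 (-1.17 to -0.50), with a footprint ratio of -0.74 (-1.23 to -0.26).

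The ISWI ATPases differed in direction. SMARCA5 (SNF2H) had 1291 RNA and 953 footprint counts in the knockout-labelled line, against 661 and 641 in the OE-labelled line, with ratios of 0.52 (0.38 to 0.66) and 0.30 (0.15 to 0.44). SMARCA1 (SNF2L) had 329 and 325, against 325 and 365, with ratios of -0.43 (-0.65 to -0.20) and -0.44 (-0.66 to -0.22). SMARCA1 also had the highest footprints over RNA of the 48 genes in both lines, 1.81-fold and 1.86-fold above the median gene. SMARCAD1, a remodeller acting behind replication forks, had 258 RNA and 128 footprint counts, against 150 and 151, and an efficiency ratio of -0.85 (-1.30 to -0.40). SMARCAL1, an annealing helicase of stalled forks, had 140 and 98, against 137 and 108, with -0.41 in mRNA and -0.42 in footprints.

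CHD remodellers lay slightly above 0, with medians of 0.12 in mRNA and 0.25 in footprints over 7 genes (-0.18 in footprints with a count minimum of 200), and none was 1.5-fold different in efficiency, where the median was 0.02 (-0.07 with total-count scaling). The NuRD ATPases CHD3 and CHD4 went opposite ways. CHD3 had 507 RNA and 133 footprint counts in the knockout-labelled line, against 297 and 60 in the OE-labelled line, with ratios of 0.33 (0.12 to 0.54) and 0.87 (0.42 to 1.34), and its efficiency ratio of 0.54 (0.06 to 1.02) was the highest of the family. CHD4 had 1840 RNA and 1275 footprint counts, against 1615 and 1237, with ratios of -0.26 (-0.35 to -0.16) and -0.23 (-0.35 to -0.12). Per coding length CHD4 was much the more abundant of the pair, at 68.0 and 79.9 CPM of footprints per coding kilobase in the knockout-labelled and OE-labelled lines, against 6.75 and 3.69 for CHD3. CHD4 was also 1.27-fold above the median gene in footprints over RNA in both lines, while CHD3 was 2.07-fold and 2.97-fold below it.

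CHD6 had the family's highest mRNA ratio, 0.36 (0.16 to 0.56), from 567 against 324 RNA counts, with 245 against 151 footprint counts. CHD1, which binds methylated histone tails at active genes, had 910 RNA and 371 footprint counts, against 616 and 346, and the lowest efficiency ratio of the family, -0.29 (-0.55 to -0.04). CHD7, mutated in CHARGE syndrome, had 565 RNA and 155 footprint counts, against 390 and 106. CHD8, a regulator of beta-catenin and a frequent autism gene, had 575 and 276, against 347 and 192, and CHD9 had 193 and 82, against 136 and 65. Efficiency ratios of CHD6 through CHD9 lay between -0.04 and 0.18.

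Among deacetylases, HDAC4 and HDAC2 lay at opposite ends of the footprint ratios. HDAC4, a class IIa deacetylase that shuttles between nucleus and cytoplasm (ENST00000345617, chromosome 2, 239048168 to 239400949, GRCh38), had 414 RNA and 188 footprint counts in the knockout-labelled line, against 477 and 89 in the OE-labelled line. Its mRNA was lower, at -0.65 (-0.84 to -0.46), and its footprints higher, at 0.80 (0.43 to 1.18). With total-count scaling the mRNA ratio was -0.53, short of 1.5-fold. The efficiency ratio of 1.45 (1.04 to 1.86), 2.73-fold higher, was the highest of the 48 genes. In footprints over RNA, HDAC4 was 1.20-fold below the median gene in the knockout-labelled line and 3.22-fold below it in the OE-labelled line.

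HDAC2 (ENST00000519065, chromosome 6, 113933028 to 113971285, GRCh38) had 1036 RNA and 544 footprint counts in the knockout-labelled line, against 708 and 711 in the OE-labelled line. Footprint counts were lower in the deeper, knockout-labelled library. Its ratios were 0.10 (-0.03 to 0.24) in mRNA, -0.66 (-0.83 to -0.50) in footprints and -0.77 (-0.98 to -0.55) in efficiency, 1.70-fold lower. HDAC1, its paralogue, had 690 RNA and 482 footprint counts, against 482 and 442, with an efficiency ratio of -0.22 (-0.47 to 0.03). HDAC2 carries a listed 3' UTR of 8033 nt and HDAC1 one of 594 nt.

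HDAC3, the catalytic subunit of NCoR and SMRT complexes, had 617 RNA and 192 footprint counts, against 502 and 137, with an efficiency ratio of 0.36 (-0.00 to 0.72). HDAC8, a cohesin deacetylase, had 186 and 134, against 114 and 71, with the family's highest mRNA ratio, 0.26 (-0.08 to 0.61), and a footprint ratio of 0.64 (0.21 to 1.08). HDAC6, the cytoplasmic tubulin deacetylase, had 243 and 144, against 202 and 108, and the class IIa HDAC7 had 378 and 83, against 257 and 59. In RNA alone, the class IIa HDAC5 had 131 against 119 counts, and HDAC10, a polyamine deacetylase, 135 against 90. The family medians were 0.07 in mRNA, 0.21 in footprints and 0.32 in efficiency. With a count minimum of 200 these became -0.04, -0.41 and -0.50, since fewer genes were then left.

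Among demethylases, KDM6B (JMJD3), which removes methyl groups from the Polycomb mark on histone H3, was the gene furthest from equal in mRNA. At ENST00000254846 (chromosome 17, 7839904 to 7854796, GRCh38), it had 1657 RNA and 425 footprint counts in the knockout-labelled line, against 505 and 142 in the OE-labelled line. Its ratios were 1.27 (1.12 to 1.42) in mRNA, 2.41-fold higher, and 1.30 (1.03 to 1.59) in footprints, 2.47-fold higher. Footprints and mRNA differed alike, so the efficiency ratio was 0.03 (-0.28 to 0.34). Its X-linked paralogue KDM6A (UTX) had 349 RNA and 68 footprint counts, against 205 and 57, with ratios of 0.32 (0.07 to 0.58) and -0.02 (-0.55 to 0.51). Intervals of the pair did not overlap in either assay.

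The KDM4 demethylases, which act on methylated lysines of histone H3, split. KDM4A had 329 RNA and 240 footprint counts in the knockout-labelled line, against 230 and 116 in the OE-labelled line, with an efficiency ratio of 0.70 (0.30 to 1.10), the highest of the family. KDM4C had 96 and 40, against 67 and 60, with the family's lowest footprint ratio, -0.86 (-1.48 to -0.26), and lowest efficiency ratio, -0.93 (-1.65 to -0.20). KDM4B had 375 and 142, against 229 and 95, and an efficiency ratio of 0.04. KDM4C rests on few counts, and its interval is wide.

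KDM7A, a demethylase with a PHD finger, and KDM2A, which binds unmethylated CpG islands, were at least 1.5-fold lower in efficiency. KDM7A had 923 RNA and 81 footprint counts, against 637 and 101, an efficiency ratio of -0.68 (-1.13 to -0.24). It was also 6.17-fold below the median gene in footprints over RNA in the knockout-labelled line and 3.79-fold below it in the OE-labelled line, the lowest of the 48 genes in the knockout-labelled line. KDM2A had 1346 and 239, against 784 and 253, an efficiency ratio of -0.69 (-0.98 to -0.41). Its paralogue KDM2B, a subunit of a variant Polycomb complex, had 213 and 58, against 224 and 49, with the family's lowest mRNA ratio, -0.52 (-0.79 to -0.24), and an efficiency ratio of 0.48 (-0.13 to 1.09). The intervals of KDM2A and KDM2B did not overlap in mRNA or in efficiency.

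Among the KDM5 demethylases, which act on the methyl mark of active promoters, KDM5B and KDM5C were higher in the knockout-labelled line in both assays. KDM5C had 2284 RNA and 1027 footprint counts in the knockout-labelled line, against 1179 and 712 in the OE-labelled line, with ratios of 0.51 (0.41 to 0.61) and 0.25 (0.11 to 0.39). KDM5B had 499 and 431, against 256 and 265, with ratios of 0.52 (0.30 to 0.74) and 0.42 (0.20 to 0.65). KDM5A, an RB-binding protein, had 617 and 258, against 457 and 170, with ratios of -0.01 (-0.19 to 0.17) and 0.32 (0.04 to 0.61). KDM5D, under the count minimum, had 61 and 42, against 34 and 11, with a footprint ratio of 1.61 (0.67 to 2.76). KDM5B was 1.59-fold and 1.71-fold above the median gene in footprints over RNA, the highest of the family. Of the rest, KDM1A (LSD1), a flavin-dependent demethylase of the CoREST complex, had 1376 and 431, against 968 and 441, and an efficiency ratio of -0.37 (-0.60 to -0.15). KDM3A had 346 and 224, against 214 and 147, and KDM3B 857 and 468, against 659 and 413, with efficiency ratios of 0.08 and -0.03. KDM1B had 246 against 239 RNA counts and an mRNA ratio of -0.40 (-0.67 to -0.14). The family medians were 0.09 in mRNA, 0.11 in footprints and -0.06 in efficiency (0.00 without a count minimum).

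**Figure D4:**
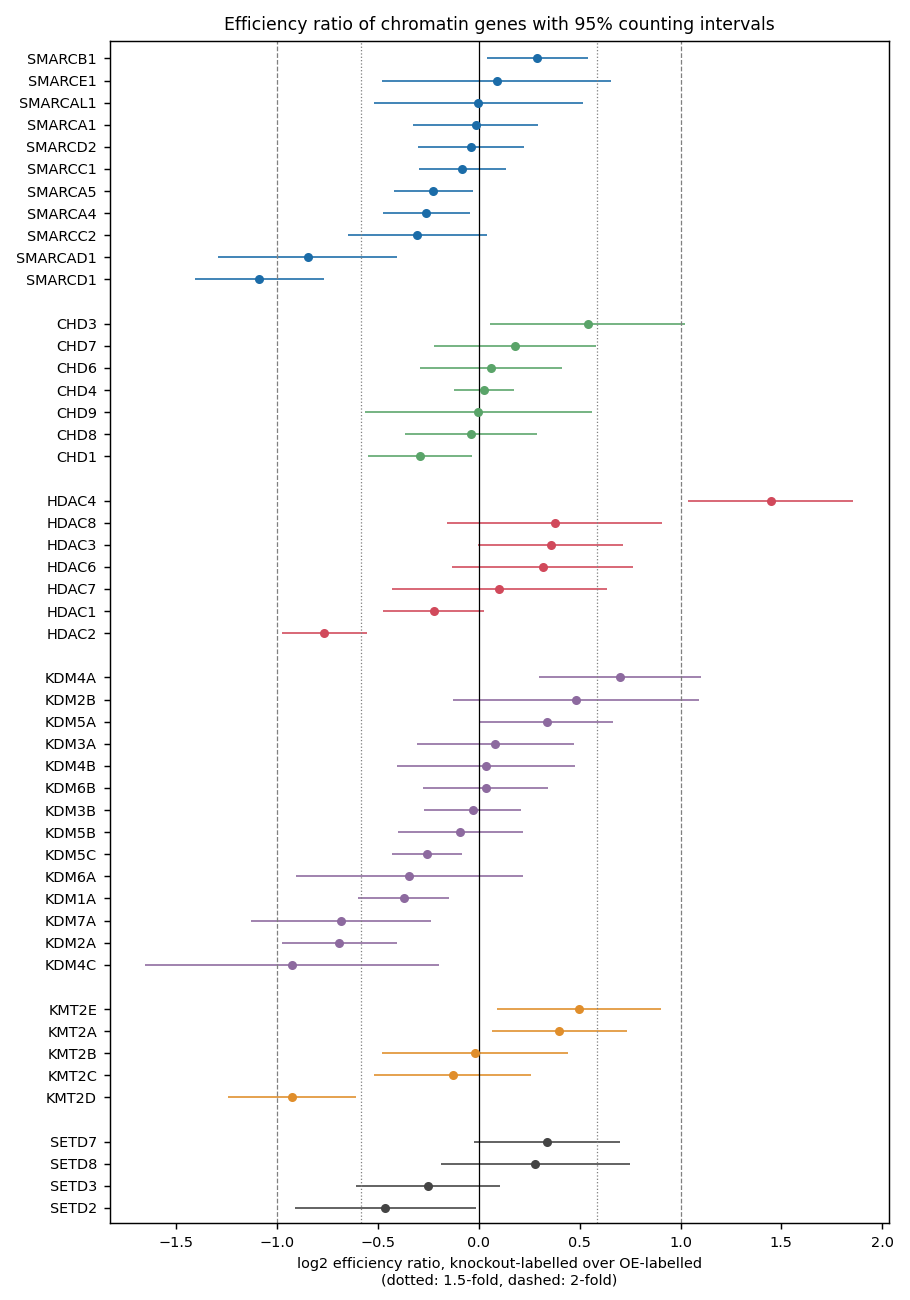
Log2 efficiency ratio, knockout-labelled over OE-labelled, of the 48 genes by family; points are the footprint ratio minus the mRNA ratio, bars are 95% Wald counting intervals, and dotted and dashed lines mark 1.5-fold and 2-fold. HDAC4 stands furthest right at 1.45 and SMARCD1 furthest left at -1.09, and the CHD and SETD genes stay within 1.5-fold.

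Among writers, the KMT2 family holds the large methyltransferases of COMPASS complexes and the related KMT2E. All 5 genes were at least 1.5-fold below the median gene in footprints over RNA in both lines, against 29.7% of all measured genes in the knockout-labelled line and 28.7% in the OE-labelled line. KMT2C and KMT2D, which act at enhancers, were the lowest in the knockout-labelled line, at 4.04-fold and 4.65-fold below the median gene, against 3.64-fold and 2.42-fold in the OE-labelled line. KMT2E stood 2.82-fold below in the knockout-labelled line and 3.92-fold in the OE-labelled line, and KMT2A 1.74-fold and 2.25-fold. KMT2B, at -0.64 and -0.60 on the log2 scale, was the nearest to the median gene. Between the lines, the family median was 0.10 in mRNA, 0.18 in footprints and -0.02 in efficiency (0.03 with upper-quartile scaling).

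KMT2D (ENST00000301067, chromosome 12, 49018975 to 49055324, GRCh38, with 16611 coding nt the longest of the set) had 1439 RNA and 168 footprint counts in the knockout-labelled line, against 854 and 213 in the OE-labelled line. Its ratios were 0.31 (0.18 to 0.43) in mRNA, -0.62 (-0.92 to -0.32) in footprints and -0.93 (-1.24 to -0.61) in efficiency, 1.90-fold lower. More RNA and fewer footprints were thus counted in the knockout-labelled line. KMT2C had 1072 and 144, against 636 and 105, with the same mRNA ratio of 0.31 and an efficiency ratio of -0.13 (-0.52 to 0.26). KMT2A (MLL1) had 737 and 231, against 569 and 152, with an efficiency ratio of 0.40 (0.06 to 0.73), and its paralogue KMT2B had 339 and 118, against 232 and 92, with -0.02 (-0.48 to 0.44). KMT2E, which lacks known histone methyltransferase activity, had 727 and 140, against 613 and 94, with -0.20 (-0.36 to -0.04) in mRNA and the family's highest efficiency ratio, 0.49 (0.09 to 0.90). The interval of KMT2D did not overlap that of any other KMT2 gene in efficiency.

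All 7 SETD genes measured in mRNA were above 0, between 0.03 and 0.60, with a median of 0.22, against 51.1% of all genes above 0. The 2 SETD genes under the count minimum went the other way, SETD6 at -1.63 (-2.35 to -0.97) and SETD9 at -0.55 (-1.23 to 0.12). The shared direction thus holds only with that minimum. SETD2, the writer of histone H3 trimethylation along transcribed gene bodies, had 593 RNA and 117 footprint counts in the knockout-labelled line, against 288 and 88 in the OE-labelled line, with ratios of 0.60 (0.39 to 0.81) in mRNA, 1.51-fold higher, and -0.46 (-0.91 to -0.02) in efficiency. SETD2 is just past 1.5-fold, and falls short of it at 0.57 with upper-quartile scaling. SETD3, an actin histidine methyltransferase, had 1122 and 158, against 732 and 138, with a footprint ratio of -0.08 (-0.42 to 0.26). SETD7 had 990 and 183, against 713 and 117, with 0.03 (-0.11 to 0.17) in mRNA and 0.34 (-0.02 to 0.70) in efficiency. By these counts SETD3 was 3.86-fold and SETD7 2.94-fold below the median gene in footprints over RNA in the knockout-labelled line. In the OE-labelled line they were 3.19-fold and 3.67-fold below it. SETD7 has 1098 coding nt in a listed transcript of 7365 nt, so its place depends on which part was counted, which is not stated. SETD8 had 366 and 132, against 231 and 77, with the highest footprint ratio of the family, 0.50 (0.09 to 0.93). Of those measured in mRNA only, SETD5 had 562 against 338, SETD1B, a COMPASS methyltransferase, 224 against 111, and SETD4 110 against 71 RNA counts. SETD1B had 22 footprint counts in the knockout-labelled line, against 42 in the OE-labelled line, while its mRNA ratio was 0.56 (0.23 to 0.91).

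Genes that work with these families were described from 9 lists, by the same counts and medians. Of 9 SWI/SNF partner subunits measured in both assays, 1 was at least 1.5-fold higher and 2 lower in efficiency, with a median of -0.34, against 13.4% and 12.9% of all genes. ARID2, the targeting subunit of the PBAF form, had 446 RNA and 79 footprint counts in the knockout-labelled line, against 298 and 129 in the OE-labelled line, an efficiency ratio of -1.12 (-1.57 to -0.66). Its mRNA ratio was 0.14 and its footprint ratio -0.98. BCL7B had 574 and 61, against 235 and 49, with an mRNA ratio of 0.84. Of 7 NuRD partners, MTA3 was at least 1.5-fold higher, from 226 RNA and 207 footprint counts against 185 and 112, and MTA1 at least 1.5-fold lower, from 1529 and 159 against 911 and 185, with a list median of 0.09. Of 10 COMPASS partners none was higher and 1 lower, NCOA6 (488 and 100, against 332 and 117), with a median of -0.35. ASH2L, a core subunit, had 141 and 79, against 162 and 81, with an mRNA ratio of -0.64. HCFC2, named after its value was seen, was not among those 10. Its mRNA ratio of 2.57 was the highest of the 12 partners measured in mRNA. Of 9 HDAC co-repressor genes 1 was higher and 1 lower, with a median of -0.42; the higher one, SAP30, had an efficiency ratio of 1.16, and the lower one, TBL1XR1, had 2666 and 219, against 1837 and 263, and RCOR1 (CoREST) had 963 and 352, against 438 and 254, with an mRNA ratio of 0.69.

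Polycomb repressive complex 2 is the writer whose mark KDM6A and KDM6B erase. Of its 6 genes measured in both assays, 4 were at least 1.5-fold lower in efficiency and none higher, with a median of -0.62, against 12.9% of all genes for lower values. In footprints 4 of 6 were at least 1.5-fold lower, against 14.0%, with a median of -0.76; JARID2, an accessory subunit, had 0.30 in footprints and 0.11 in efficiency. The mRNA median of 9 genes was -0.03. The catalytic subunit EZH2 had 425 RNA and 103 footprint counts in the knockout-labelled line, against 373 and 160 in the OE-labelled line, an efficiency ratio of -0.65 (-1.06 to -0.24). SUZ12, a core subunit, had 384 and 56, against 371 and 117, with -0.94 (-1.44 to -0.44). Of 7 acetyltransferases, CREBBP alone was lower in efficiency and none was higher; it had 494 and 92, against 300 and 143, a ratio of -1.18 (-1.61 to -0.75), while the list median was 0.22. Of 3 sirtuins measured in both assays, SIRT6 (122 and 131, against 96 and 68) was higher in efficiency, at 0.77 (0.19 to 1.34). SIRT2 was lower, at -0.68. SIRT1 (186 and 64, against 106 and 62) was lower at -0.59, which is also the list median, but its interval of -1.20 to 0.01 includes 0. Of 11 other lysine methyltransferases 3 were higher and 2 lower, with a median of 0.10; NSD1 had 1758 and 202, against 791 and 135, with an mRNA ratio of 0.71, and WHSC1L1 772 and 61, against 505 and 70. Of 11 INO80, SRCAP and ISWI partners, the ATPase SRCAP was higher at 1.05 (0.57 to 1.53), from 345 and 144 against 288 and 65, and the related EP400 lower at -0.88 (-1.29 to -0.47), from 509 and 101 against 379 and 156, with a median of -0.14. The efficiency median was below 0 in 6 of 9 partner lists, where 50.4% of all measured genes were below 0. These lists held only 3 to 11 genes measured in both assays, and none was tested.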

How the data were processed

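The authors deposited raw counts as whole numbers, 1 per gene, for 19192 genes that each carry 1 transcript identifier (per the file headers). Per the submitters' processing notes, the tools were HISAT2 2.1.0, Bowtie 1.1.2 and cutadapt 1.10, with GRCh38 as the build and no role or order stated. Which counter and annotation were used, which transcript part was counted and whether the random identifiers (4 nt and 5 nt) served to collapse duplicates is not given in the sources used here. Intervals are too narrow if copies from the 15 PCR cycles were counted. TMM factors (edgeR 4.0.16, R 4.3.3) scaled both libraries of an assay, and 0.5 was added to counts before log2. Ratio intervals are exact conditional binomial (Clopper-Pearson), level intervals exact Poisson, efficiency and footprint over RNA intervals Wald. Transcript lengths came from GENCODE release 29, where 19176 of 19192 transcripts were found. The log2 ratio and its binomial interval were tried on simulated Poisson counts with known folds, scaled by their median. That trial did not cover TMM scaling, efficiency ratios, PCR copies or variation between libraries. With 1 library per line and assay no test was possible. The 64 genes and the partner lists were chosen with earlier results of these data known. Named in full were genes at least 2-fold different, the highest and lowest of each family in each ratio, and paralogue pairs, and in each partner list up to 2 genes at least 1.5-fold different; genes at least 1.5-fold different, SIRT2, JARID2, HCFC2, SAP30 (after their values were seen) and the remaining members are given beside them. Other scalings (size factors from DESeq2 1.42.0, upper quartile, totals with or without mitochondrially encoded genes), 5 added to counts, other count minimums and other centrings were tried. Scripts ran in Python 3.11.15 with pandas 2.3.3, numpy 2.4.6, scipy 1.17.1 and matplotlib 3.10.9.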

Additional observations from a re-analysis of the deposited data

How the results depend on the processing

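Of 451 alternative values of the medians and counts, 392 stayed within the order-statistic interval of the median over members, or within 1.5 times the count, and 59 moved. For small families that interval is wide, and 23 medians changed sign; of 125 alternative values of single genes, 117 kept their side of 1.5-fold, 8 (HDAC4 and SETD2 in mRNA, KDM7A in footprints) fell short of it and none reversed. No paired analysis was possible because each line and assay has 1 library. Where fewer or more genes were measured the moved counts follow from that; for the other settings the cause was not tested. Total-count scaling shifts the median of all genes to 0.13 in mRNA and -0.10 in efficiency (0.13 and -0.10 without mitochondrially encoded genes). With it the mRNA median was 0.21 for all members and 0.19 for HDAC (0.20 and 0.19 without mitochondrially encoded genes), and under both scalings 6 genes were at least 1.5-fold higher and 1 lower in mRNA and 3 were 2-fold lower in efficiency. Upper-quartile scaling and 5 added to each count each left 1 gene at least 1.5-fold higher in mRNA. Without a count minimum, the 1.5-fold counts were 4 lower in mRNA, 10 higher and 11 lower in footprints, and 9 higher and 12 lower in efficiency. The 2-fold counts were then 1 lower in mRNA, 3 higher and 4 lower in footprints, and 5 higher and 5 lower in efficiency. In footprints over RNA 1 gene (knockout-labelled) and 6 genes (OE-labelled) were then 2-fold above the median gene, and the SMARC median was 0.59 in the knockout-labelled line. A minimum of 10 gave 9 genes at least 1.5-fold higher in footprints and 7 in efficiency. Its 2-fold counts were 1 lower in mRNA, 2 higher and 2 lower in footprints, and 4 higher and 3 lower in efficiency, with 1 (knockout-labelled) and 2 (OE-labelled) genes above in footprints over RNA and a median of all members of -0.17 in the knockout-labelled line. A minimum of 200 left 1 gene lower in mRNA, 1 higher and 3 lower in footprints, and 0 higher and 3 lower in efficiency at 1.5-fold, with medians of -0.04 (mRNA), -0.41 (footprints) and -0.50 (efficiency) for HDAC, -0.18 (footprints) for CHD and for all members and -0.07 (mRNA) for SMARC, with 0 genes 2-fold higher in efficiency and 4 (knockout-labelled) and 3 (OE-labelled) genes 2-fold below in footprints over RNA. Adding SETDB1, SETDB2 and CHD1L gave 1 gene 2-fold lower in mRNA, 2 in efficiency, and 1 gene 2-fold above in OE-labelled footprints over RNA. Centring on the mean also gave 1 there. Uncentred TMM values gave medians of all members of -0.10 (knockout-labelled) and -0.084 (OE-labelled), where the median of all genes was 0.28 and 0.26. With uncentred totals that median was 0.17 and 0.24. Both uncentred scalings gave 1 and 2 genes at least 2-fold above 0, which there is not the median gene. The whole-transcript setting, chosen after seeing the data, gave KMT2 medians of -2.22 and -2.03, a SMARC median of -0.45 in the knockout-labelled line, 2 and 3 genes 2-fold above and 20 genes 2-fold below in the knockout-labelled line. Where more genes passed a fold with a lower minimum, fewer counts stood behind each.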
